A study of Mus musculus with 7 samples.

Results

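The constitutive proteasome subunits are the 34 genes that encode the standard 20S core and 19S regulator of the proteasome in mouse, taken by symbol from the count table of a total RNA-seq of retina and without the immunoproteasome subunits. They comprise 7 alpha-ring genes (Psma1 to Psma7), 7 beta-ring genes (Psmb1 to Psmb7), 6 ATPases of the regulator base (Psmc1 to Psmc6), 11 non-ATPase subunits of the regulator and 3 base assembly chaperones that carry the same family name (Psmd5, Psmd9 and Psmd10), 34 of 52550 genes in the table. All 34 passed the filter on low counts, as did 20128 genes in all.

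The retinas came from 4 WT mice and from 3 mice homozygous for the SCA7 140Q/140Q knock-in (called SCA7 here), all C57BL/6J and 12.5 weeks old. In the knock-in, both copies of Atxn7 carry an expanded CAG repeat in exon 1 and are driven by the gene's own promoter, so that every retinal cell that expresses Atxn7 can make the mutant protein. Each library was made from both retinas of 1 mouse. The comparison asked how retinal transcripts differed at an age of advanced retinopathy in these mice.

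The proteasome degrades proteins that were tagged with ubiquitin chains. Its barrel-shaped core holds the protease sites inside a pair of beta rings, which are closed at each end by an alpha ring, and the regulator caps the barrel, binds and unfolds the substrate, removes the ubiquitin and feeds the chain into the core. Polyglutamine proteins such as expanded ataxin-7 form inclusions in which ubiquitin and proteasome proteins are often found, and photoreceptors renew a part of their outer segments every day.

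The 7 libraries held 56497675 to 96635832 counts assigned to genes, and the 34 genes took 0.310% to 0.356% of the counts in WT and 0.365% to 0.373% in SCA7. Levels of single genes are given below as CPM, counts divided by library size after scaling by TMM factors, where 1 count was worth at most 0.0188 CPM. The TMM factors were 0.890 to 0.974 in WT and 1.065 to 1.090 in SCA7. The summed level of 10 rod markers was 61229 to 63351 CPM in WT and 16483 to 21388 CPM in SCA7, so the tissue was retina as labelled and the rod transcripts were lower in SCA7. Atxn7 itself ranged from 33.7 to 43.7 CPM in WT and from 34.2 to 39.9 CPM in SCA7 (log2 fold change -0.06 ± 0.09, SE, adjusted p = 0.636, quasi-likelihood test of edgeR, Benjamini-Hochberg adjusted). These values check no label, because a count per gene does not show the length of the repeat. In whole retina, fewer cells of a type and less RNA per cell cannot be told apart.

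One library stood apart for these genes. WT replicate 3 was the highest of the 4 WT libraries in 32 of the 34 genes and the highest of all 7 libraries in 28, whereas it was the highest WT library in 33.6% of all genes tested. Its median over the 34 genes was 0.26 above the other WT libraries on the log2 scale, and WT replicate 4 was the lowest WT library in 23 of them. The deviation of WT replicate 3 went with exon length: over 9855 protein-coding genes of at least 10 CPM, its median log2 deviation was 0.18 in the bin with the shortest exons, 0.04 and -0.03 in the middle bins and -0.08 in the bin with the longest, the bins holding equal numbers of genes. WT replicate 4 went the other way, from -0.11 in the shortest to 0.08 in the longest bin. Of the 34 genes, 21 were in the shortest bin, 8 in the second, 5 in the third and 0 in the longest. The part of this library in each result was not tested, and the counts are therefore given with and without it. The look at this library was added after the values were seen.

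**Figure D1:**
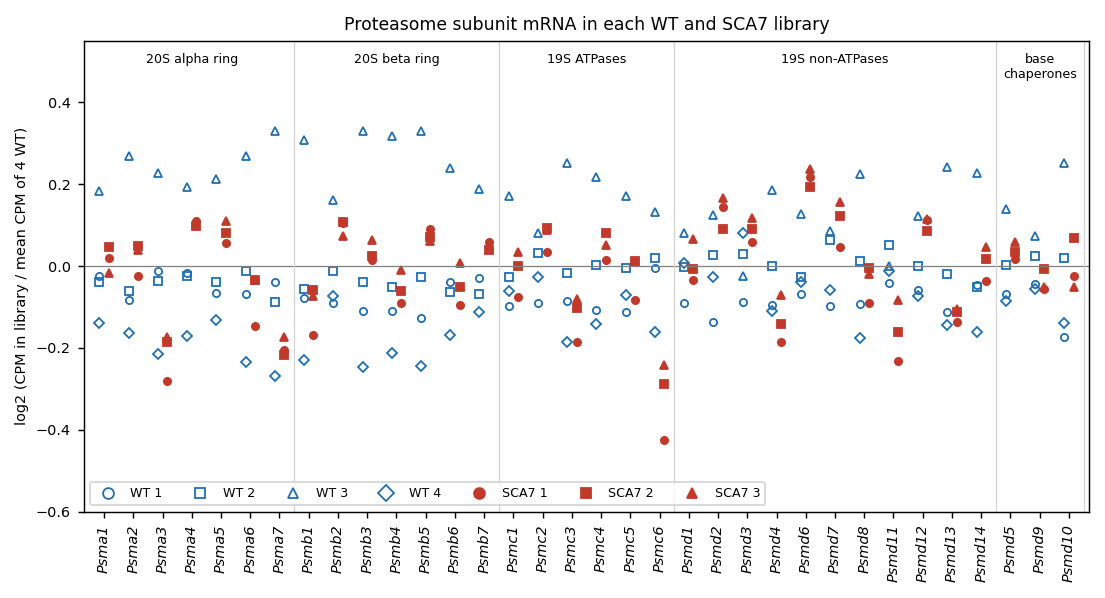
Level of each of the 34 genes in each library as log2 of its CPM over the mean CPM of the 4 WT libraries, grouped by role; open blue symbols are WT and filled red symbols SCA7, and the symbol shape gives the replicate. WT replicate 3 (open triangles) lies above the other WT libraries in 32 genes, the SCA7 libraries lie close together, and all 3 SCA7 libraries lie below all WT libraries for Psmc6 and above them for Psmd6.

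Between SCA7 and WT, 1 of the 34 transcripts fell (Psmc6) and 1 rose (Psmd6), and 32 did not pass the test (adjusted p under 0.05, edgeR). Of all genes tested, 14.2% fell and 14.2% rose, or 28.3% in either direction. None of the 34 passed the study's limits of a fold change under 0.7 or above 1.3, which 7.91% and 7.47% of all genes passed. Over the 34 genes the log2 fold change had a median of 0.01, beside -0.02 over all genes and 0.02 over protein-coding genes tested, and their log2 fold changes ran from -0.32 to 0.22. Lower values were fitted for 16 of them and higher values for 18.

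With TMM scaling and all 7 libraries, the 95% interval of the fold change of each of the 34 genes lay between 0.7 and 1.3, from 0.716 at the lower end for Psmc6 to 1.272 at the upper end for Psmd6. The same held for 44.0% of all genes tested and for 73.6% of the 10059 genes whose mean CPM was 10 or more, a background chosen after the values were seen. Of these 10059 genes, 32.7% passed the test in either direction. Without WT replicate 3, all 34 intervals lay within the same limits, from 0.755 (Psmc6) to 1.284 (Psmd6), as did 45.7% of those of all genes. With scaling to total counts, 20 of the 34 did, beside 27.3% of all genes, and the fitted log2 fold change of Psmd6 was 0.41 with an upper end of 1.437 for the fold. Without 1 SCA7 library, 31 to 33 of the 34 did.

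**Figure D2:**
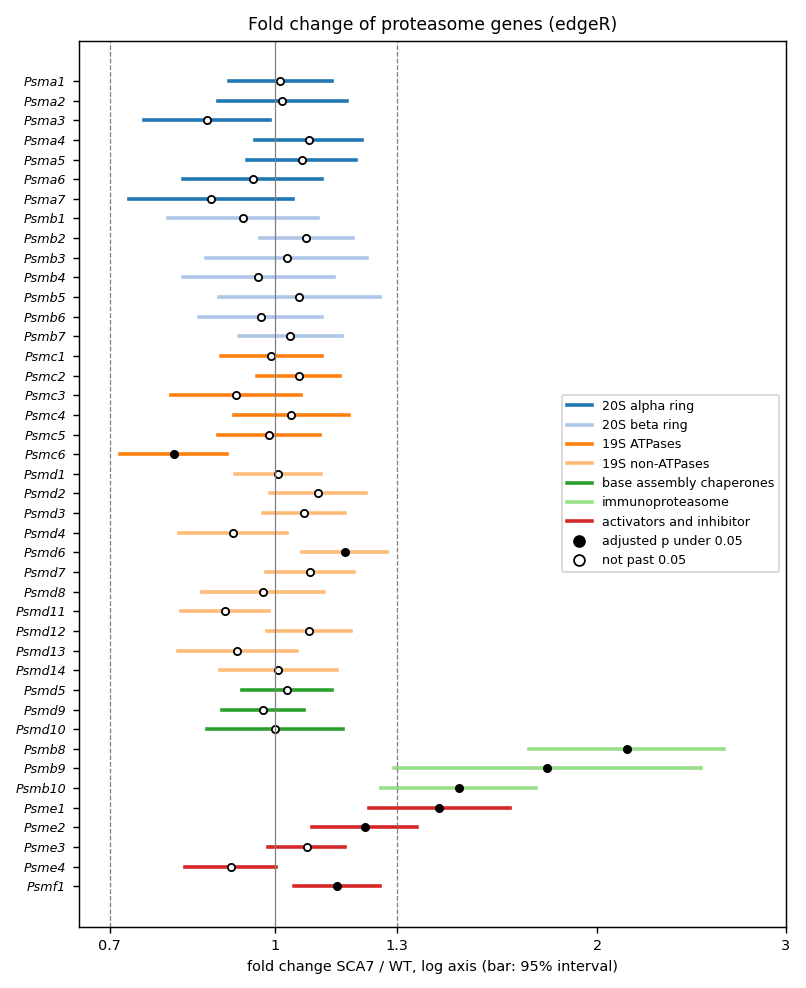
Fold change SCA7/WT on a log axis with its 95% interval (edgeR) for the 34 constitutive genes, the 3 immunoproteasome genes and the activators and inhibitor; filled points passed adjusted p under 0.05, and the broken lines mark 0.7 and 1.3. With this scaling, every constitutive interval lies between the broken lines, and Psmb8, Psmb9, Psmb10 and Psme1 lie to the right with fold changes of 2.13, 1.80, 1.48 and 1.42.

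The summed CPM of the 34 genes was 3300, 3438, 3998 and 3182 in the WT libraries and 3350, 3451 and 3502 in the SCA7 libraries. The SCA7 values thus lay inside the WT range, which WT replicate 3 stretched upward. For 25 of the single genes, all 3 SCA7 values lay inside the range of the 4 WT values. The share of all genes for which this held was not computed, so this count has no reference. Every SCA7 library was below every WT library for 2 genes (Psmc6 and Psmd11) and above for 1 (Psmd6), beside 18.3% and 19.3% of all genes. The values of SCA7 libraries were close together: the median coefficient of variation was 2.70% over the 3 SCA7 libraries, 10.1% over the 4 WT libraries and 4.61% over WT without replicate 3. Over the 9855 protein-coding genes of at least 10 CPM the same medians were 3.63%, 7.20% and 5.37%, so that the SCA7 libraries were the closer ones over these genes as well.

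Without WT replicate 3, 8 of the 34 genes rose and 1 fell, where 17.5% of all genes rose and 16.7% fell, and the median log2 fold change was 0.08. Besides Psmd6 (log2 fold change 0.26), those that rose without it were Psmb5 (0.20), Psmd2 (0.18), Psma4 (0.17), Psma5 (0.16), Psmb3 (0.16), Psmb2 (0.15) and Psmd12 (0.15), with adjusted p from 0.000778 to 0.0394 (edgeR). Every SCA7 library was then above every WT library for 15 genes, beside 24.5% of all genes, and below for 2, beside 23.3%. Without WT replicate 4, 3 genes fell (Psma3, Psma7 and Psmc6) and 1 rose, beside 14.1% and 15.4% of all genes. Scaling to total counts alone moved the median of all genes from -0.02 to 0.17. On that scale 20 of the 34 genes rose and 0 fell, beside 36.2% and 7.43% of all genes, and 13 of the 16 lower values turned higher, but the median of the 34 exceeded the median of all genes by 0.03 on both scales.

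The alpha ring gates the entry of the core and carries no protease site. None of its 7 genes passed the test, which 28.3% of all genes passed. Their log2 fold changes ran from -0.21 to 0.10 with a median of 0.02. Psma3 was at 133, 130, 157 and 115 CPM in WT and at 110, 118 and 118 CPM in SCA7. Only the lowest WT library overlapped with SCA7, and the log2 fold change of -0.21 ± 0.09 (SE) did not pass (adjusted p = 0.0975, edgeR). Psma7 had a similar fitted difference (-0.20 ± 0.12, adjusted p = 0.229), whereas Psma4 (0.10 ± 0.08) and Psma5 (0.08 ± 0.08) had values on the higher side. Psma3 and Psma7 each fell in 4 of the 18 alternative fits. Psma4 and Psma5 each rose in 2, and Psma1 and Psma2 each in 1. Psma1, Psma2 and Psma6 had log2 fold changes of 0.02, 0.02 and -0.07. The ring thus had no common direction in these libraries.

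The beta ring holds the proteolytic sites in Psmb5 (chymotrypsin-like activity), Psmb6 (caspase-like) and Psmb7 (trypsin-like), while Psmb1, Psmb2, Psmb3 and Psmb4 are structural neighbours. None of the 7 genes passed the test, beside 28.3% of all genes, and their log2 fold changes ran from -0.10 (Psmb1) to 0.10 (Psmb2). Psmb5 (chr14:54614119-54618022 in mm10) was at 61.2, 65.6, 84.0 and 56.4 CPM in WT and at 71.1, 70.2 and 69.7 CPM in SCA7. The SCA7 values lay above 3 of the 4 WT libraries and below WT replicate 3, and the log2 fold change was 0.07 ± 0.11 (95% interval of the fold 0.885 to 1.253). This gene is measured less surely than most, since 54.1% of the 50-base windows of its annotated transcripts also occur in transcripts of other genes, most of all the processed pseudogene Gm3375.

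Psmb6 was at 160, 157, 194 and 146 CPM in WT and at 154, 158 and 165 CPM in SCA7. The ranges of the groups overlapped, with a log2 fold change of -0.05 ± 0.09. Psmb7 was at 109, 106, 127 and 103 CPM in WT and at 116, 115 and 115 CPM in SCA7. Again the SCA7 libraries lay above 3 WT libraries and below the third replicate, and the log2 fold change was 0.05 ± 0.07. Psmb3 and Psmb4 had log2 fold changes of 0.04 and -0.05.

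The 6 ATPases form the motor ring that unfolds the substrate. In this ring Psmc6 fell and the other 5 did not pass the test (log2 fold changes from -0.12 for Psmc3 to 0.07 for Psmc2). Psmc6, which encodes the ATPase Rpt4 (chr14:45329788-45349705), was at 135, 138, 149 and 121 CPM in WT and at 101, 111 and 115 CPM in SCA7. All 3 SCA7 libraries were below all 4 WT libraries. The fold change was 0.80, or -0.32 ± 0.08 on the log2 scale (adjusted p = 0.00886, edgeR; 28.3% of all genes passed). Its call was lost without SCA7 replicate 1 (-0.26, adjusted p = 0.0639), with a correction for GC content and length (-0.19, adjusted p = 0.0797) and with scaling to total counts (-0.12, adjusted p = 0.154), and it held in the other 15 of 18 alternatives.

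Psmc1 averaged 124 ± 10.7 CPM (SD, n = 4) over WT and 122.9 ± 4.72 CPM (n = 3) over SCA7 libraries, and Psmc5 at 129 ± 11.5 and 128 ± 4.68 CPM. The fitted log2 fold changes of both, -0.01 and -0.02, turned positive (0.18 and 0.17) with scaling to total counts. Psmc4 had a log2 fold change of 0.05.

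The 11 non-ATPase subunits form the lid and the upper base of the regulator, with the receptors and the enzyme for ubiquitin. Of these, 1 rose and 10 did not pass the test, where 14.2% of all genes rose and 14.2% fell. Their median log2 fold change was 0.01. Psmd6, a scaffold subunit of the lid (Rpn7, chr14:14112174-14120984), was at 65.4, 67.3, 74.9 and 66.8 CPM in WT and at 79.7, 78.4 and 80.9 CPM in SCA7. The groups did not overlap, since the lowest SCA7 library was above WT replicate 3. The fold change was 1.16, or 0.22 ± 0.06 on the log2 scale (adjusted p = 0.0192, edgeR). The call held in 13 of 18 alternatives but in only 2 of the 7 fits without 1 library: without WT replicate 1 or 2 or any 1 SCA7 replicate, the adjusted p was 0.0542 to 0.0808 with log2 fold changes of 0.19 to 0.23.

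Psmd14, the deubiquitinase of the lid that removes the chain before the substrate enters, was at 92.9, 92.6, 112 and 85.7 CPM in WT and at 93.4, 97.1 and 99.0 CPM in SCA7. Its SCA7 values lay within the WT range, with a log2 fold change of 0.01 ± 0.08 and a fold between 0.888 and 1.141. Psmd4, a ubiquitin receptor of the regulator, was at 135, 144, 164 and 134 CPM in WT and at 127, 131 and 137 CPM in SCA7. SCA7 replicates 1 and 2 were below every WT library, but replicate 3 was not, and the log2 fold change of -0.13 ± 0.08 did not pass (adjusted p = 0.224, edgeR).

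Psmd11, a lid scaffold subunit (Rpn6), was at 21.7, 23.2, 22.3 and 22.2 CPM in WT and at 19.03, 20.003 and 21.1 CPM in SCA7. Its groups did not overlap, yet the log2 fold change of -0.16 ± 0.06 did not pass the test (adjusted p = 0.0865, edgeR). Psmd2, a large scaffold and docking subunit of the base, was at 171, 192, 205 and 185 CPM in WT and at 208, 200 and 211 CPM in SCA7. All but WT replicate 3 lay below the SCA7 libraries, with a log2 fold change of 0.13 ± 0.07 (adjusted p = 0.172). The other base scaffold, Psmd1, had a log2 fold change of 0.01, and the lid subunits Psmd3, Psmd7, Psmd8, Psmd12 and Psmd13 had 0.09, 0.11, -0.04, 0.10 and -0.12.

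The 3 base chaperones help to assemble the ATPase ring and leave before the proteasome is complete. None passed the test, beside 28.3% of all genes. Psmd10, also known as gankyrin, was at 15.8, 18.1, 21.3 and 16.2 CPM in WT and at 17.6, 18.7 and 17.2 CPM in SCA7. Its SCA7 values lay in the middle of the WT range (log2 fold change 0.00 ± 0.10, fold between 0.864 and 1.157). Psmd5 and Psmd9 had log2 fold changes of 0.04 and -0.04, and the value of Psmd9 turned to 0.15 with scaling to total counts. Psmd9 shares 1849 exonic bases with Gm26745 on the opposite strand, and whether the counting used the strand is not given in the sources used here.

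To compare subunits with one another, levels are given per length as reads per kilobase (RPK), the count scaled by the size factor of the library and divided by the median transcript length. In WT, the 34 genes had a median of 6173 RPK, beside 732 RPK for the 16170 protein-coding genes expressed in WT. The highest was Psmd2 at 17915, 20163, 21418 and 19348 RPK in WT and 22010, 21030 and 22397 RPK in SCA7. The lowest was Psmd10 at 774, 890, 1038 and 794 RPK in WT and 869, 919 and 856 RPK in SCA7. The WT means of these genes, 19711 and 874 RPK, were 22.5-fold apart. Psmd10 is a chaperone, and the finished particle holds the products of the other 31 genes in fixed numbers. Among those 31, the WT means ran from 2284 RPK (Psmd12) to 19711 RPK (Psmd2), or 8.63-fold, a span that depends on the length used, as given below. In rank among expressed protein-coding genes, Psmd2 stood at the 97.9th percentile and Psmd10 at the 53.4th, and the other 32 were between the 72.4th (Psmd12) and the 97.3rd percentile (Psmb4 and Psmd1).

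By role, the WT medians per length were 9776 RPK for the ATPases, 6283 for the beta ring, 6053 for the non-ATPases, 6049 for the alpha ring and 3223 for the base chaperones. In SCA7 the same medians were 8829, 6776, 7031, 6556 and 3167 RPK. The WT ranges of each gene and the next in the order of levels overlapped in all but 2 of 33 pairs, Psmd9 above Psmd3 and Psmd12 above Psmd10. Levels of neighbours come from the same libraries, however, and within libraries 19 of the 33 pairs, such as Psmd2 above Psmb4, stood in the same order in all 4 WT libraries. The other 14 pairs, such as Psmb4 above Psmd1, changed order in at least 1 WT library. The order also depended on the length used, because the annotation lists short partial transcripts for many of these genes. With the union of exons as the length, the median was 2298 RPK, Psmc5 moved from rank 16 to rank 1, Psmd2 from 1 to 12 and Psmd1 from 3 to 27. The lowest gene was then Psmd11 (242 RPK) and no longer Psmd10, and the 31 genes without the chaperones, as well as all 34, spanned 26.5-fold.

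**Figure D3:**
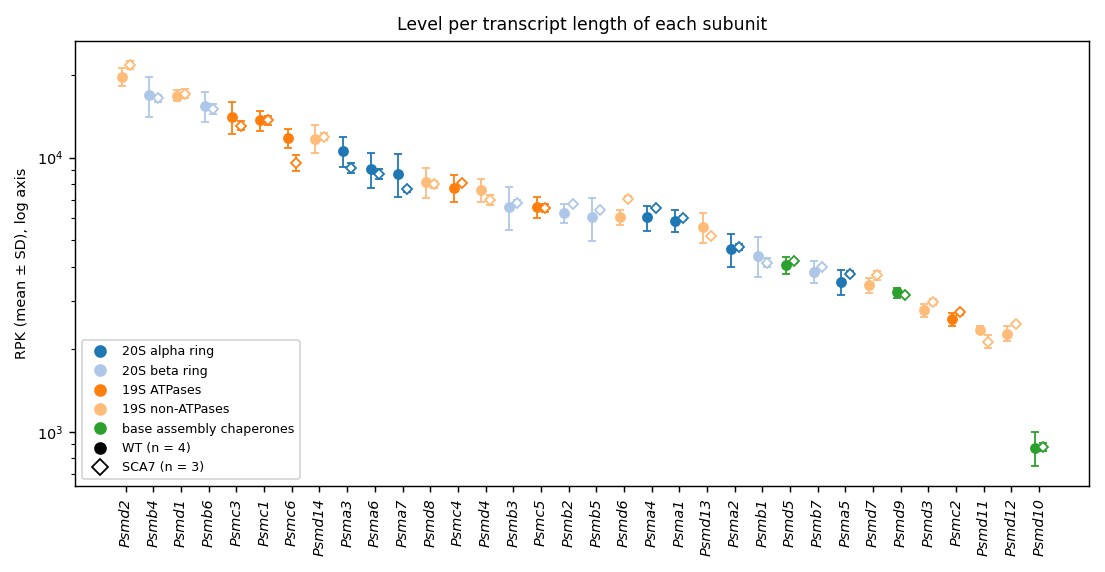
Level per length (RPK, mean ± SD, log axis) of the 34 genes in WT (filled circles, n = 4) and SCA7 (open diamonds, n = 3), ordered by the WT mean and coloured by role. Levels descend from Psmd2 (19711 RPK in WT) to Psmd10 (874 RPK), the WT ranges of most neighbours overlap, and the SCA7 value of Psmc6 lies below its WT value.

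Transcription of proteasome genes as a group is known to be raised by NRF1, the product of Nfe2l1, which binds antioxidant response elements together with small MAF proteins. RefSeq promoters (250 bases before to 50 after the start, GRCm38.p6) were given for 28 of the 34 genes. The core letters TGACNNNGC were found on either strand in 5 of the 28, or 17.9%, beside 13.99% of 27025 genes with promoters of that length. A gene was counted if any of its promoters held the letters. The matches are shown because this element belongs to the known regulator of the genes. Each is printed in the orientation of its gene, with the match in capitals and neighbouring bases in lower case.
Psmb5 (chr14:54618023-54618052, minus strand): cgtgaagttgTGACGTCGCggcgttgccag
Psmb6 (chr11:70525338-70525367, plus strand): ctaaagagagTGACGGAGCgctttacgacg
Psmc6 (chr14:45329587-45329616, plus strand): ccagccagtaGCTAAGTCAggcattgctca
Psmd9 (chr5:123228149-123228178, plus strand): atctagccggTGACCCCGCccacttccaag
Psmd12 (chr11:107479278-107479300, plus strand): tctGCTGTGTCAcatttgccccc
In Psmc6 and Psmd12 the letters run on the strand opposite to the gene. In Psmd9 they overlap a GC box on the opposite strand.

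Of these 5 genes, Psmc6 fell, and Psmb5, Psmb6, Psmd9 and Psmd12 did not pass the test. The GC box GGGCGG was present on either strand in 18 of the 28 genes (64.3%, beside 38.2% of all genes). The CCAAT box of NF-Y was in 11 (39.3%, beside 41.1%), and TAATCC, letters bound by the photoreceptor factor CRX, in 3 (10.7%, beside 8.14%). On the strand of the gene alone, TGACNNNGC was in 3 genes (10.7%, beside 7.29%) and GGGCGG in 12 (42.9%, beside 25.6%). On that strand CCAAT was in 11 (39.3%, beside 23.7%) and TAATCC in 0 (beside 3.87%). The Psmd6 promoter held 1 GC box and none of the other 3. These are matches of letters in a fixed window and not measured binding.

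Some regulators of this element passed the test. Of 6 genes on a list of regulators, 3 rose, 1 fell and 2 did not pass the test, where 14.2% of all genes rose and 14.2% fell. Nfe2l1 was at 151, 162, 145 and 177 CPM in WT and at 173, 166 and 174 CPM in SCA7. Its SCA7 values were inside the WT range, with a log2 fold change of 0.11 ± 0.07 (adjusted p = 0.278, edgeR). Nfe2l2, which encodes the stress regulator NRF2, rose from 22.8 ± 0.95 (SD, n = 4) to 28.1 ± 1.65 CPM (n = 3; log2 fold change 0.30 ± 0.07, adjusted p = 0.00459, edgeR).

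The small MAF genes Mafk (8.34 ± 0.90 to 12.3 ± 0.49 CPM, log2 fold change 0.56) and Maff (1.13 ± 0.29 to 1.90 ± 0.46 CPM, 0.74) rose too, with adjusted p of 0.000768 and 0.0225 (edgeR), and Mafg had 0.07. Ngly1, the deglycosylase that processes NRF1, fell from 58.9 ± 3.16 to 51.3 ± 2.28 CPM (-0.20 ± 0.06, adjusted p = 0.0310). Ddi2, the protease that cleaves NRF1 into its active form and also a shuttle receptor, rose from 65.7 ± 6.70 to 95.2 ± 3.90 CPM (0.53 ± 0.08, adjusted p = 0.000327). Ddi2 shares 1749 exonic bases with Rsc1a1 on the same strand, so its reads may have been split or discarded. Without 1 library at a time, the calls of Nfe2l2, Mafk and Ddi2 held in all 7 fits and those of Maff and Ngly1 in 3. The call of Ngly1 held in 11 of 18 alternatives in all. It was also lost with the correction for GC content and length (-0.14, adjusted p = 0.109), with scaling to total counts (-0.01, adjusted p = 0.939) and with a filter of 1 count (-0.18, adjusted p = 0.0755).

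Most assembly factors, delivery proteins and ubiquitin genes did not pass the test, where 28.3% of all genes passed it, 14.2% in each direction. None of the 5 core assembly chaperones (Pomp and Psmg1 to Psmg4) passed, with log2 fold changes from -0.08 to 0.16. The ubiquitin genes Ubb and Rps27a, the activating enzyme Uba1 and the unfoldase Vcp did not pass, with log2 fold changes from -0.19 for Ubb to 0.09 for Uba1. Among 6 shuttle receptors, which carry substrates to the proteasome, Ubqln2 rose with Ddi2 (21.8 ± 2.07 to 25.8 ± 0.46 CPM, 0.24 ± 0.08, adjusted p = 0.0346, edgeR). Among 6 associated proteins, Ube3c, a ubiquitin ligase bound to the regulator, rose from 120 ± 2.15 to 145 ± 2.77 CPM (0.28 ± 0.05, adjusted p = 0.00232). Without 1 library at a time, the call of Ube3c held in all 7 fits and that of Ubqln2 in 2.

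The further regulator subunits Adrm1 and Sem1 did not pass, with log2 fold changes of 0.04 and -0.01. The tissue-specific core subunits were scarce. Psmb11, the thymic form, averaged 0.26 ± 0.09 CPM over the WT and 0.19 ± 0.01 CPM over the SCA7 libraries, and Psma8, the testis form, did not pass the filter on low counts.

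**Figure D4:**
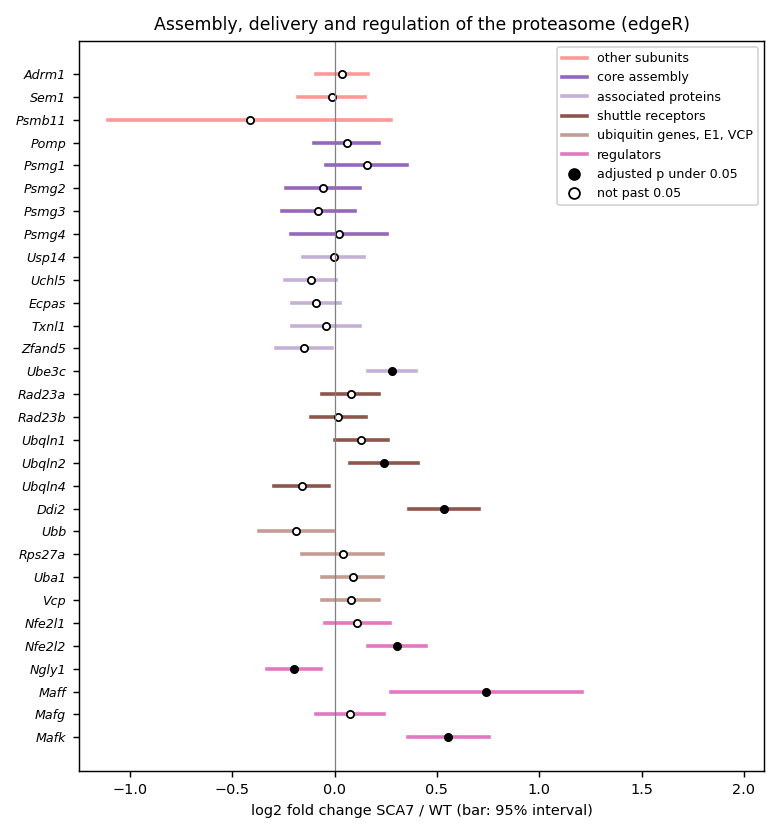
Log2 fold change SCA7/WT with its 95% interval (edgeR) for genes of proteasome assembly, delivery and regulation, coloured by list; filled points passed adjusted p under 0.05. Points past the test on the right are Ube3c, Ubqln2, Ddi2, Nfe2l2, Maff and Mafk, and Ngly1 is the one on the left.

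All 3 immunoproteasome subunits rose. Psmb8, Psmb9 and Psmb10 replace Psmb5, Psmb6 and Psmb7 in newly made cores of immune cells and of cells exposed to interferon. Psmb8 was at 3.71, 4.38, 4.99 and 3.07 CPM in WT and at 8.55, 9.12 and 8.11 CPM in SCA7. It rose 2.13-fold, the groups being far apart (log2 fold change 1.09 ± 0.14, adjusted p = 0.000126, edgeR).

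Psmb9 was at 1.66, 1.59, 2.66 and 1.18 CPM in WT and at 3.46, 2.80 and 3.24 CPM in SCA7. It rose 1.80-fold, and here WT replicate 3 came close to the lowest SCA7 library (0.84 ± 0.22, adjusted p = 0.0135, edgeR). Psmb10 was at 12.5, 12.5, 17.2 and 12.2 CPM in WT and at 20.4, 19.4 and 20.5 CPM in SCA7. It rose 1.48-fold without overlap of the groups (0.57 ± 0.11, adjusted p = 0.00254). Of all genes tested, 14.2% rose.

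The caps that replace the regulator on some cores are the activators. Psme1 and Psme2, the interferon-inducible subunits of the 11S activator, rose, Psme1 from 31.1 ± 4.98 to 44.3 ± 0.42 CPM (log2 fold change 0.51 ± 0.10, adjusted p = 0.00297, edgeR) and Psme2 from 15.7 ± 1.18 to 19.03 ± 0.78 CPM (0.28 ± 0.07, adjusted p = 0.0155). Psme2 shares 28.3% of its 50-base windows with other genes, most of all Psme2b. Psmf1, an inhibitor of the core, rose from 37.1 ± 2.15 to 42.4 ± 0.75 CPM (0.19 ± 0.06, adjusted p = 0.0339), and Psme3 (0.10) and Psme4 (-0.14), the nuclear activators, did not pass. Thus 3 of these 5 genes rose, where 14.2% of all genes did. Without 1 library at a time, the calls of Psmb8, Psmb10 and Psme1 held in all 7 fits, that of Psmb9 in 6 and that of Psme2 in 5, but that of Psmf1 in only 2.

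The ratio of counts of each immunoproteasome subunit to its counterpart does not depend on how libraries are scaled, though it is a ratio of reads and not of molecules. For Psmb8 to Psmb5 it was 6.06%, 6.67%, 5.94% and 5.45% in WT and 12.0%, 13.0% and 11.6% in SCA7. For Psmb9 to Psmb6 it was 1.04%, 1.01%, 1.37% and 0.81% in WT and 2.25%, 1.77% and 1.96% in SCA7. For Psmb10 to Psmb7 it was 11.4%, 11.7%, 13.5% and 11.8% in WT and 17.6%, 17.0% and 17.9% in SCA7. In each pair all 3 SCA7 libraries were above all 4 WT libraries, by 2.03-fold, 1.91-fold and 1.45-fold in the mean of the log ratio.

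The planned exact two-sided permutation test over all 35 assignments of libraries to genotypes gave p = 0.0571 for each ratio (adjusted over the 3 ratios, 0.0571). That is the smallest p this test can give with 4 and 3 libraries, since it doubles the one-sided value, so this test could not have passed 0.05 for any of the 3 ratios. A second convention, which counts assignments with an absolute difference at least as large, was tried after these p-values had been seen. It gave exact permutation p of 0.0286, 0.0571 and 0.0286, adjusted to 0.0429, 0.0571 and 0.0429, and its smallest possible p is 0.0286. Because that choice was made with the first result known, the values below 0.05 are not counted as calls.

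**Figure D5:**
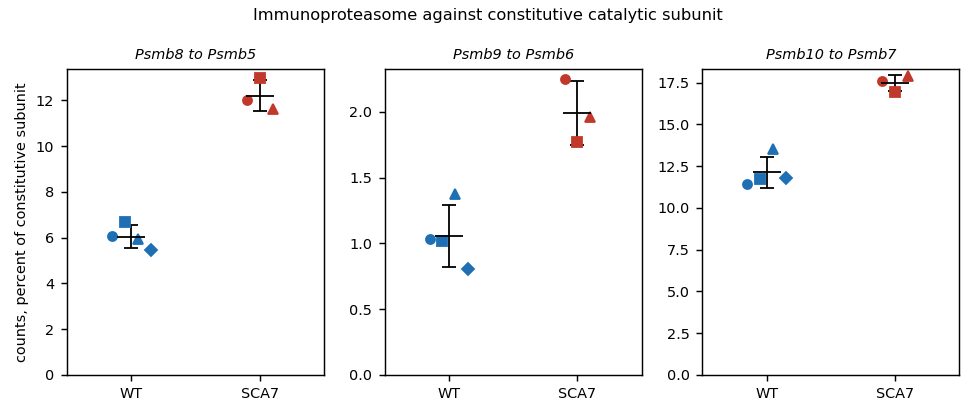
Counts of each immunoproteasome subunit as a percent of the counts of its constitutive counterpart in the same library; blue points are the 4 WT and red points the 3 SCA7 libraries, with mean ± SD in black. The means are 6.03% and 12.2% for Psmb8 to Psmb5, 1.06% and 1.99% for Psmb9 to Psmb6, and 12.1% and 17.5% for Psmb10 to Psmb7, and the groups do not overlap in any panel.

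Markers of other cell types went in both directions, where 14.2% of all genes tested rose and 14.2% fell. All 8 microglia markers rose, their summed level being 44.2 to 54.5 CPM in WT and 104 to 117 CPM in SCA7, and none was at 0 in any library. Of 5 endothelial markers 3 rose and 1 fell (summed, 133 to 171 and 186 to 242 CPM). All 10 rod and all 10 cone markers fell, as did 4 of 5 markers of the pigment epithelium (summed, 99.8 to 204 and 16.3 to 38.5 CPM, lowest WT library replicate 3). Of 8 bipolar markers 6 fell (summed, 826 to 989 and 727 to 776 CPM), of 7 amacrine markers 3 fell (470 to 563 and 406 to 442 CPM), and of 4 horizontal cell markers 1 fell (85.0 to 97.3 and 70.9 to 72.4 CPM). Of 7 Müller glia markers 3 rose and 1 fell (4496 to 5409 and 4378 to 4641 CPM), and none of 7 ganglion cell markers passed (314 to 370 and 323 to 370 CPM). The part of these cells in the values of the immunoproteasome genes, of the activators and of the 34 constitutive genes was not tested.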

How the data were processed

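The authors prepared stranded total RNA libraries after removal of ribosomal RNA, sequenced single reads of 50 bases, mapped them to mm10 with TopHat2 2.0.14 and Bowtie2 2.1.0, and deposited raw counts per gene from HTSeq 0.6.1 with Ensembl release 90. The counting mode and strand setting are not given in the sources used here. Libraries were grouped by the labels (4 WT, 3 SCA7). Counts were tested with edgeR 4.0.16 (filterByExpr, TMM, robust quasi-likelihood fit, no covariates), with Benjamini-Hochberg adjustment over 20128 genes. DESeq2 1.42.0 (size factors for RPK, and a test), limma-voom 3.58.1, other scalings and filters, covariates, a replicate block and each library left out were 18 alternatives, all planned. The fit code was tested on simulated data. Annotation was GENCODE vM21. Shared 50-base windows were searched in annotated transcripts in place of the genome, so unannotated copies were missed. Of the 34 genes, 14 shared no window and 7 shared over 10%. Ratios were tested with scipy 1.17.1.

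The genes and lists were chosen with earlier results of these data known. Values of every library are given for genes that passed the test, the catalytic subunits, Psmd14, Psmd4 and the highest and lowest in RPK; Psma3 and Psmd11 were added after their values were seen. Of the other lists, called genes were named (at most 4 a list by smallest p) with Nfe2l1, Psmb8, Psmb9, Psmb10, Psme1 and Psme2. Also added after values were seen were the background of at least 10 CPM, the order of levels within libraries, the intervals under other settings, the look at WT replicate 3 and the second permutation convention. Some genes of the ubiquitin list are not reported here.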

Additional observations from a re-analysis of the deposited data

Results flagged for a closer look

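Among 52 sets of 4 WT values examined (the named genes and the 3 ratios), 1 had a library far from the others. Chance gives about 1 in 20, so 1 of 52 is no more than chance gives. The sets also come from the same 4 libraries. Psmb10 was at 17.2 CPM in WT replicate 3 and at 12.2 to 12.5 CPM in the other WT libraries. The same library was the highest WT library in 32 of the 34 constitutive genes. Without it, the log2 fold change of Psmb10 was 0.70 in place of 0.57.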

How the results depend on the processing

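The counts of calls among the 34 genes depended on the libraries and the scaling. Leaving out 1 library gave 0 to 3 genes that fell and 0 to 8 that rose, in place of 1 and 1, beside 8.56% to 16.7% and 8.45% to 17.5% of all genes. Scaling to total counts gave 0 that fell and 20 that rose (7.43% and 36.2% of all genes), 1 of them past a fold change of 1.3, and 20 of the 34 intervals within 0.7 to 1.3 in place of 34, the median then being 0.20 on the log2 scale, and it turned the sign of 13 genes, of which Psmc1 (0.18), Psmc5 (0.17) and Psmd9 (0.15) passed the test in the new direction. The correction for GC content and length gave 0 that fell (14.5% of all genes). A covariate from Xist gave 3 (17.3% of all genes), but Xist had only 4 to 19 counts in every library. Leaving out 1 library left 31 to 34 intervals within 0.7 to 1.3. The cause of these differences was not tested.

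The labels do not say what same-numbered libraries share. A further number in their titles, which the labels do not explain, differs by 2, 1 and 1 within the same-numbered pairs. As planned, the main test did not treat them as pairs. Deviations of same-numbered libraries correlated at 0.01, 0.20 and 0.09, values from too few libraries to show whether they were pairs. WT replicates 2 and 3 and SCA7 replicate 2 correlated best with their own number, and WT replicate 1 and SCA7 replicates 1 and 3 did not. The fit with the replicate block gave 3 genes that fell (16.7% of all genes), the same libraries without the block, which are those without WT replicate 4, also gave 3 (14.1%), and the block with the GC and length correction gave 6 (17.4%). For the ratios, the block gave log2 differences of 0.97, 0.81 and 0.52.

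With the union of exons as length, the median RPK was 2298 in WT and 2287 in SCA7, in place of 6173 and 6668 (6653 to 6720 without 1 SCA7 library), and the highest gene was 26.5-fold and 29.2-fold above the lowest, in place of 22.5-fold and 24.8-fold (without the chaperones in WT, 26.5-fold in place of 8.63-fold). The second permutation convention, added after the first was seen, left the log2 differences at 1.02 for Psmb8 to Psmb5 and 0.53 for Psmb10 to Psmb7 and moved their adjusted p from 0.0571 to 0.0429. Of 612 values of single constitutive genes under the alternatives, 567 kept their side of the threshold, 515 of these with the same sign, 37 passed it anew and 8 no longer passed. The sign changed in 55, 13 of them with total counts and 42 with other alternatives. None of those 42 passed the test, and the log2 fold change with all libraries was at most 0.10 in size.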
